A study of Mus musculus with 9 samples.

Results

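Transcripts of 10 plasma protein genes of the hepatocyte, Alb, Ttr, Apoa1, Apoa2, Mup3, Serpina3k, Fgb, Fga, Ahsg and Trf, were followed through 9 libraries of injured mouse muscle. They are 10 of the 54532 Ensembl genes in the deposited count table and were found by matching their symbols to the Ensembl identifiers. The genes were chosen by their counts in these same libraries, because liver transcripts had been seen in the old PBS group. Their levels in old PBS against the other groups are therefore a description and carry no test. The name given to the group held for 9 of the 10 genes, whose CPM (counts scaled to library size, here with edgeR's TMM factors) was higher in each old PBS library than in any other library, against 3.76% of all 21981 genes with at least 10 counts. The choice of the genes fixed this, and for Mup3 and Serpina3k it rests on 1 count in old PBS 4. Trf did not follow it: its counts in old PBS lay inside the range of the other groups.

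Hepatocytes secrete most of the proteins of blood plasma, among them albumin, the carriers of lipid, hormone and iron, the chains of fibrinogen and many protease inhibitors. They transcribe these genes at very high levels under factors such as HNF1, HNF4 and C/EBP. Muscle fibres and the cells between them are not known as a source of albumin or fibrinogen, whereas transthyretin is also made by the choroid plexus of the brain and transferrin by several tissues outside the liver.

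RNA came from tibialis anterior muscle of C57/BL6J mice injured with barium chloride, a salt that destroys muscle fibres and starts regeneration. Young PBS mice were 4 months old and received 3 injections of PBS, old PBS mice were 24 months old and received the same, and old rMETRNL mice were 24 months old and received 3 injections of recombinant METRNL, the secreted protein meteorin-like. All 3 groups were thus injured and injected, and no uninjured muscle was analysed here. Each group had 3 libraries, which are numbered 1, 2 and 3 in young PBS and old rMETRNL and 2, 3 and 4 in old PBS. The labels describe a suspension of cells from minced and digested muscle, and the series description gives day 4 after injury. The text of the study describes whole muscle and day 8, and the dose of rMETRNL carries different units in different places of the study. Nothing in the labels says which animal each library came from, so p-values measure the spread between these libraries. In bulk RNA of this kind, fewer cells of a type and less RNA per cell cannot be told apart.

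The libraries held 16238700 to 22522560 counts, so that a count of 3, used here as the floor for a gene listed at 0, corresponded to 0.133 to 0.185 CPM before TMM scaling. Libraries within a group were not alike to within counting error: chi-square divided by its degrees of freedom was 10.9 to 169, and was highest for old PBS 3 and old PBS 4. The 7 muscle fibre genes read as a check of the tissue summed to 66137 to 106644 CPM in all 9 libraries. TMM factors ran from 0.827 in old PBS 4 to 1.16 in old PBS 3. All intervals below are 95% intervals that cover counting error only, since reads copied by PCR are not independent molecules.

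Promoter sequence was available for Alb, Apoa1, Apoa2, Mup3, Fgb, Fga and Ahsg, and was not shown for Ttr, Serpina3k and Trf. Windows of 150 bases upstream of the gene are given here for 4 genes, Alb and Mup3, whose counts differed most steeply within the old PBS group together with Serpina3k, and Fgb and Apoa1, whose counts were nearly level there. The windows of Mup3, Fgb and Apoa1 end at the base next to the gene start, whereas that of Alb ends at 90460869, short of the gene start at 90460897. They are RefSeq sequences of the GRCm38.p6 build, read 5′ to 3′ on the strand of the gene, at chr5:90460720-90460869 (plus strand) for Alb, chr4:62087343-62087492 (minus strand) for Mup3, chr3:83049864-83050013 (minus strand) for Fgb and chr9:46228430-46228579 (plus strand) for Apoa1. Capitals mark the letters GTTAAT, a half-site of HNF1, and TTGCNNAA, a C/EBP-type motif, on either strand.
Alb: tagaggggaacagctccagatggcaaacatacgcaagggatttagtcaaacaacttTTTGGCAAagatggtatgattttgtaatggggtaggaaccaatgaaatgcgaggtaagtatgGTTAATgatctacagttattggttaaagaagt
Mup3: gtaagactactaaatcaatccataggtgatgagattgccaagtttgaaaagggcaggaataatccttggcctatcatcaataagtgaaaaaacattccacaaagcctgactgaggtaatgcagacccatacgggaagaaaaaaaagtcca
Fgb: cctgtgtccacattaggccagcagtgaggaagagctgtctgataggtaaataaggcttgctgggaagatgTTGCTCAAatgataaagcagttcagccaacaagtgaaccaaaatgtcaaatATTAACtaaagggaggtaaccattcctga
Apoa1: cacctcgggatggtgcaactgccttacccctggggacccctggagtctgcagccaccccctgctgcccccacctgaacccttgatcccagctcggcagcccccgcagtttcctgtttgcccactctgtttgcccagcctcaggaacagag

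Over the 250 bases before the start used for the RefSeq promoters, GTTAAT was found in 3 of the 7 promoters (Alb, Fgb and Fga) and in 6.44% of the 32817 promoters of the RefSeq table. The match in Fga was not within the bases before the annotated gene start at chr3:83026076. TTGCNNAA was found in 4 of the 7 (Alb, Fgb, Fga and Ahsg) and in 9.57% of all promoters. The match in Ahsg lies within chr16:22891865-22892014, inside the annotated gene, which starts at 22891277. CAAAGTCC, an HNF4-type motif, was found in none of the 7 and in 1.20% of all promoters. Both strands were searched, and the motifs do not overlap in the windows shown. Alb and Fgb, which carried both kinds of letters, differed in how their counts were spread over the old PBS libraries, as described below, and so did Mup3 and Apoa1, which carried none of them in these windows. A match is a run of letters and not evidence of binding.

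Albumin, the most abundant protein of plasma and a carrier of fatty acids, gave the most counts of the 10 genes. Alb (ENSMUSG00000029368, chr5:90460897-90476602 in GRCm38) had 956, 508 and 25 counts in old PBS 2, 3 and 4. It had 0 counts in each young PBS library and 3, 1 and 1 in old rMETRNL 1, 2 and 3. Each old PBS library thus lay above the other 6, but the highest and the lowest of them differed by 40.9-fold in CPM (interval 27.5 to 63.6). In CPM these were 64.3, 22.2 and 1.57, a mean of 29.4 ± 32.0 (SD, n = 3), so that the spread within the group was as large as its mean. The old PBS mean was at least 173-fold above the floor of the young PBS libraries and 336-fold above the old rMETRNL mean (interval 139 to 1001).

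**Figure D1:**
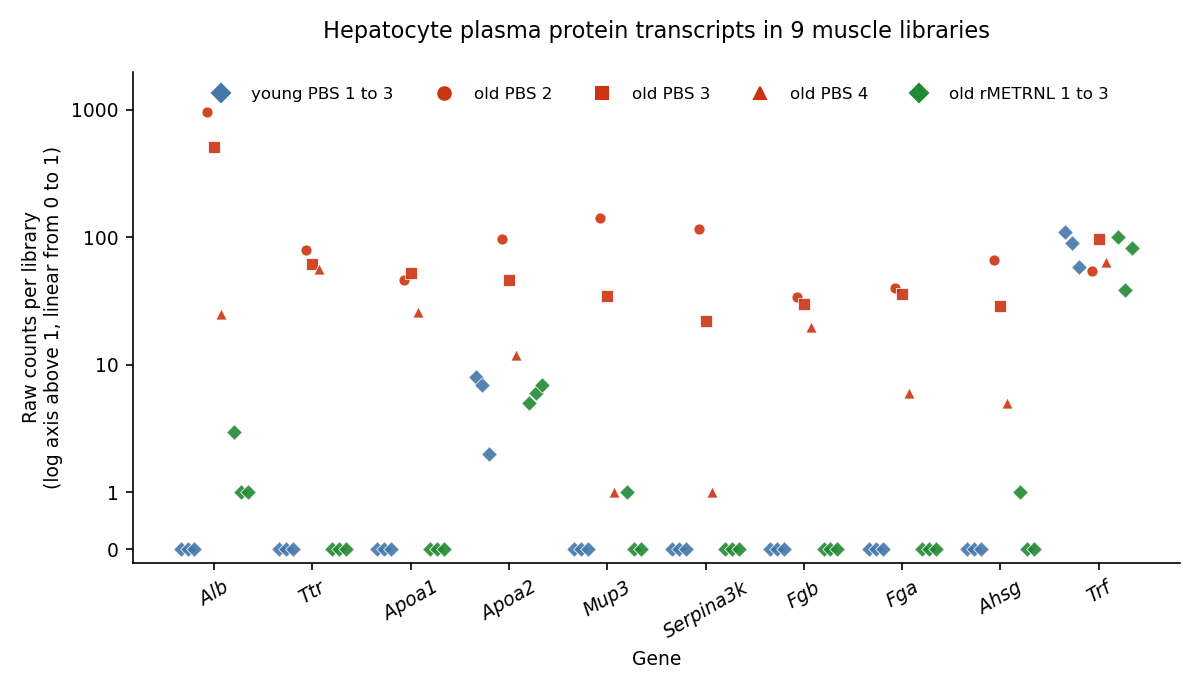
Raw counts of the 10 genes (horizontal axis) in each of the 9 libraries (points) on a vertical axis that is logarithmic above 1 and linear from 0 to 1. The old PBS points of Alb run from 25 to 956 and those of Ttr from 57 to 80, while the other 6 libraries are at 0 to 3 counts for every gene but Apoa2 and Trf.

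Transthyretin carries thyroid hormone and, together with retinol-binding protein, retinol. Ttr (ENSMUSG00000061808, chromosome 18) had 80, 62 and 57 counts in old PBS 2, 3 and 4 and 0 in each of the other 6 libraries. Unlike those of Alb, its counts were of similar size in the 3 old PBS libraries. Its CPM there was 3.89 ± 1.36 (SD, n = 3), at least 22.9-fold above the floor of young PBS and at least 25.1-fold above that of old rMETRNL.

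Apoa1 and Apoa2 encode the main proteins of high-density lipoprotein. Apoa1 (ENSMUSG00000032083, chr9:46228580-46230466) had 46, 53 and 26 counts in old PBS 2, 3 and 4 and 0 in each of the other 6. Its CPM was 2.35 ± 0.731 (SD, n = 3), at least 13.8-fold above the floor of young PBS. Apoa2 (ENSMUSG00000005681, chr1:171225054-171226379) was the only gene besides Trf with counts in every library. The old PBS libraries 2, 3 and 4 gave 98, 46 and 12 counts, against 8, 7 and 2 in young PBS and 5, 6 and 7 in old rMETRNL. The lowest old PBS library, old PBS 4, stood at 0.755 CPM (interval 0.390 to 1.32). The highest of the other 6, young PBS 1, stood at 0.462 CPM (0.199 to 0.910). The values of the groups did not overlap, but these counting intervals did, and the gene was chosen for its level in old PBS. The old PBS mean of 3.12 ± 3.07 CPM (SD, n = 3) was 9.72-fold that of young PBS (interval 5.49 to 16).

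The next genes encode a lipid carrier of urine, a protease inhibitor and a regulator of mineral. Mup3 (ENSMUSG00000066154, chr4:62083476-62087342) encodes a major urinary protein, a small lipocalin made by the liver and passed into urine. Its counts were 142, 35 and 1 in old PBS 2, 3 and 4, 0 in young PBS and 1, 0 and 0 in old rMETRNL. Old PBS 4 and old rMETRNL 1 therefore had 1 count each, and their order in CPM, 0.0629 against 0.0535, rests on the TMM factors. As a percentage of total counts it is the reverse, 5.2e-06 against 5.69e-06, so Mup3 in old PBS 4 cannot be told from the other libraries. Serpina3k (ENSMUSG00000058207, chr12:104338486-104346144), a secreted serine protease inhibitor, had 116, 22 and 1 counts in old PBS 2, 3 and 4 and 0 in each other library. Both genes were thus nearly confined to old PBS 2 and 3, and without old PBS 4 the groups stand further apart. Ahsg (ENSMUSG00000022868, chr16:22891277-22899449), which encodes fetuin-A, an inhibitor of calcium phosphate deposits, gave 67, 29 and 5 counts for old PBS, 0 for young PBS and 1, 0 and 0 for old rMETRNL. In CPM the old PBS means were 3.72 ± 5.11 for Mup3, 2.94 ± 4.24 for Serpina3k and 2.03 ± 2.20 for Ahsg (SD, n = 3 each). For all 3 the SD exceeded the mean.

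Fga and Fgb encode the alpha and beta chains of fibrinogen, which are secreted together with the gamma chain as 1 molecule, and lie close to each other on chromosome 3. Fgb (ENSMUSG00000033831, chr3:83040141-83049863) had 34, 30 and 20 counts in old PBS 2, 3 and 4. Fga (ENSMUSG00000028001, chr3:83026076-83033627) had 40, 36 and 6. Both were at 0 in the other 6 libraries. The chains were alike in old PBS 2 and 3, where 1.18 and 1.20 Fga counts were found per Fgb count (intervals 0.726 to 1.92 and 0.719 to 2.02). In old PBS 4 this ratio was 0.300 (interval 0.0986 to 0.775), below the value of both other libraries, although the upper end of its interval reached into theirs. The gamma chain gene Fgg, which was not among the 10, had 33, 10 and 11 counts in the same libraries and 0 elsewhere.

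Transferrin carries iron to cells. Trf (ENSMUSG00000032554, chr9:103204001-103230444) had 110, 91 and 59 counts in young PBS, 55, 97 and 64 in old PBS and 100, 39 and 83 in old rMETRNL. The 3 groups overlapped, and the old PBS mean of 3.99 ± 0.27 CPM (SD, n = 3) lay between 4.91 ± 1.52 in young PBS and 3.77 ± 1.57 in old rMETRNL. Trf was also the gene whose count is least certain, since 2108 of its 3320 exon bases lie in exons of Gm20425 on the same strand, a gene listed at 0 in all 9 libraries, and reads in both may not have been counted. Among the other 9 genes, Mup3 shared 2.94% of its 100-base windows with another gene (Mup21), Serpina3k shared 4.85% (Serpina3m) and the rest shared none. Ahsg overlaps Gm30505 on the opposite strand over 62 exon bases, and without a stated strand setting the reads of both cannot be told apart there.

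Per kilobase of exon, which allows genes to be compared, the mean level in old PBS was highest for Alb at 12.5 ± 13.7 CPM per kilobase (SD, n = 3). Apoa2 followed at 5.81 ± 5.72, Mup3 at 3.48 ± 4.78 and Ttr at 3.28 ± 1.15. Apoa1 stood at 1.90 ± 0.591, Serpina3k at 1.43 ± 2.06 and Trf at 1.20 ± 0.0812. The lowest means were 0.924 ± 1.0 for Ahsg, 0.514 ± 0.385 for Fga and 0.425 ± 0.152 for Fgb. For every pair of neighbours in this order the ranges over the 3 libraries overlapped. The order also changed with the library: Alb had rank 1 in old PBS 2 and 3 and rank 5 in old PBS 4. Ttr had rank 4 and 3 in old PBS 2 and 3 and rank 1 in old PBS 4, at 3.02 CPM per kilobase, and Alb was at 0.671, behind Ttr, Apoa2, Apoa1 and Trf.

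The proportions between the genes differed in old PBS 4. Alb made up 58.5% of the counts of the 10 genes in old PBS 2 (exact Clopper-Pearson interval 56.1 to 60.9%), 55.3% in old PBS 3 (52.1 to 58.6%) and 11.5% in old PBS 4 (7.60 to 16.5%). The 10 genes had 1634, 918 and 217 counts in these libraries. Ttr went the other way, from 4.90% (3.90 to 6.06%) and 6.75% (5.22 to 8.57%) to 26.3% (20.5 to 32.7%). The share of Fgb was 2.08, 3.27 and 9.22% and that of Apoa1 2.82, 5.77 and 12% in the same order. Mup3 went from 8.69 and 3.81% to 0.461%, which was 1 count.

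**Figure D2:**
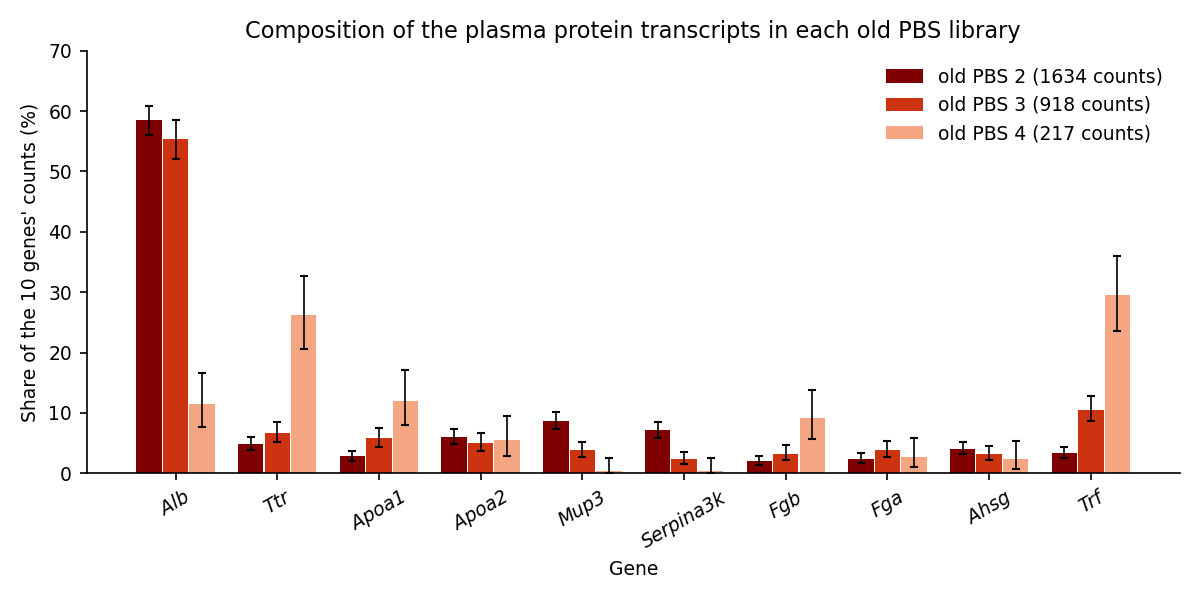
Share of each of the 10 genes (horizontal axis) in the summed counts of the 10, in percent (vertical axis), in old PBS 2, 3 and 4 (bars, with exact binomial 95% intervals). Alb falls from 58.5 and 55.3% to 11.5% in old PBS 4, while Ttr, Fgb and Trf take larger shares there.

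Read as ratios, 12 Alb counts were found per Ttr count in old PBS 2 (interval 9.51 to 15.2), 8.19 in old PBS 3 (6.29 to 10.8) and 0.439 in old PBS 4 (0.263 to 0.713). Per Apoa1 count, Alb gave 20.8, 9.58 and 0.962. The intervals of old PBS 4 lay far below those of the other two libraries in both cases. Mup3 counts per Ttr count were 1.78 (1.34 to 2.36), 0.565 (0.362 to 0.868) and 0.0175 (0.000437 to 0.102), and the 3 intervals did not overlap. By contrast, the ratio of Fgb to Ttr was 0.425, 0.484 and 0.351 and that of Apoa1 to Ttr 0.575, 0.855 and 0.456, with intervals that overlapped among all 3 libraries. Within old PBS the genes thus ranged from a steep pattern, for Alb, Mup3 and Serpina3k, to a nearly level one, for Ttr, Fgb and Apoa1. Apoa2, Fga and Ahsg lay between them, with no clear break. The steep genes also differed among themselves: the CPM of old PBS 2 over old PBS 3 was 2.90 for Alb (2.60 to 3.24), 6.25 for Mup3 (4.29 to 9.33) and 8.12 for Serpina3k (5.12 to 13.5). The CPM of old PBS 2 over old PBS 4 was 152 for Mup3 (27 to 6044) and 124 for Serpina3k (21.8 to 4945), 14.3 for Ahsg (5.85 to 45.6), 8.74 for Apoa2 (4.78 to 17.5) and 7.13 for Fga (3.01 to 20.6). It was 1.89 for Apoa1 (1.15 to 3.19), 1.82 for Fgb (1.02 to 3.34) and 1.5 for Ttr (1.06 to 2.15).

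Other hepatocyte genes, 126 in 3 lists of secreted proteins, metabolic enzymes and major urinary proteins, were read in the same libraries. Of the 94 with at least 10 counts over the 9 libraries, 35 (37.2%) were higher in each old PBS library than in each of the other 6. Among all 21981 genes with at least 10 counts, 3.76% were. The 35 comprised 22 genes of secreted proteins, 12 of metabolism and the urinary protein gene Mup20. Among them, Apob, Apoa5, Serpina1c, Hrg, Cyp2c29, Asgr1, Slco1b2 and Mup20 had 1 count in old PBS 4, and Ambp, Ces1c and Mat1a had 2. Such counts cannot be told from 0. Apob also had 1 count in young PBS 1 and Asgr1 had 1 in old rMETRNL 1, so their order there rests on the TMM factors. The lists were drawn up with earlier results of these libraries known, so their count is no independent evidence. Without old PBS 4 the count was 56 of 94 (59.6%, against 6.81% of all genes).

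Among these genes, Gc, which encodes the vitamin D-binding protein, had 78, 24 and 5 counts in old PBS 2, 3 and 4 and 0 elsewhere. Serpina1b, which encodes an alpha-1-antitrypsin, had 63, 41 and 3 counts, and Apob, the protein of low-density lipoprotein, had 50, 30 and 1 with 1 further count elsewhere. Enzymes of the hepatocyte were present too: Cyp3a11, a cytochrome P450 that oxidises drugs and steroids, had 60, 34 and 0 counts, and Mat1a, which makes S-adenosylmethionine in the liver, had 53, 16 and 2, both with 0 elsewhere. These genes followed the steep pattern of Alb. Kng1, the kininogen gene, with 21, 21 and 8 counts, and Hamp, the gene of the iron hormone hepcidin, with 9, 8 and 8, were nearer to Ttr, and both were at 0 elsewhere. Serpina1 genes share 14.8 to 58.5% of their 100-base windows with other genes and Mup20 38.8%, so the split of reads within these families is uncertain. Of the 21 urinary protein genes other than Mup3, 10 were at 0 in all 9 libraries, and Mup20, with 39, 25 and 1 counts in old PBS, had the most. Most of those at 0 share most of their windows with other genes, such as Mup2 (97.3%), Mup10 (85.4%) and Mup19 (100%), so a 0 there may not mean absence. Mup5 and Mup6, also at 0, share 1.33% and 0%.

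**Figure D3:**
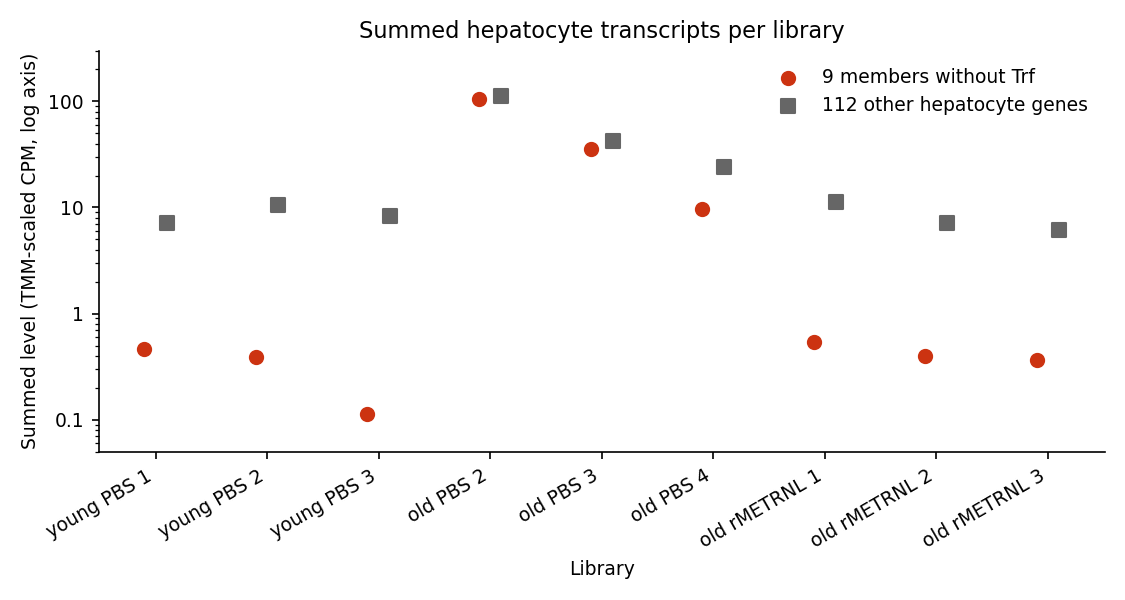
Summed TMM-scaled CPM (vertical axis, logarithmic) in each library (horizontal axis) of the 9 genes without Trf (circles) and of 112 other hepatocyte genes whose mean outside old PBS was under 0.5 CPM (squares). The 112 genes reach 113, 42.5 and 24.3 CPM in old PBS 2, 3 and 4 and 6.11 to 11.2 CPM in the other 6, where the limit of 0.5 CPM keeps them low. All 126 hepatocyte genes sum to 191 to 248 CPM in old PBS, which overlaps the 87.6 to 247 CPM of the other 6.

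For the 32 hepatocyte genes whose old PBS counts came to 20 or more, against 3 or fewer elsewhere, 7 of them among the 10 and 25 others, the part of the summed old PBS CPM that lay in old PBS 4 was computed. Its median was 4.28%, with a range of 0 to 34.5%, whereas the median of the 14343 genes with at least 1 CPM in old PBS was 33.2% and 0.258% of them were under 5%. All 32 were highest in old PBS 2, and 25 were lowest in old PBS 4. Of the 25 others, 16 had under 5% of their CPM in old PBS 4, 5 had 5 to 20% and 4 had 20% or more: Fgg at 20.7%, Azgp1 at 23%, Serpina1e at 23.5% and Hamp at 34.5%. For comparison, Ttr had 30.7%, Fgb 25.9% and Apoa1 23.2%. Such a share does not by itself mean level counts: Fgg, at 33, 10 and 11 counts, and Serpina1e, at 30, 10 and 12, were higher in old PBS 2 than in both other libraries. Alb, left out of the 32 by its 5 counts elsewhere, had 1.78% there, and Mup3 and Serpina3k had 0.564 and 0.712%.

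**Figure D4:**
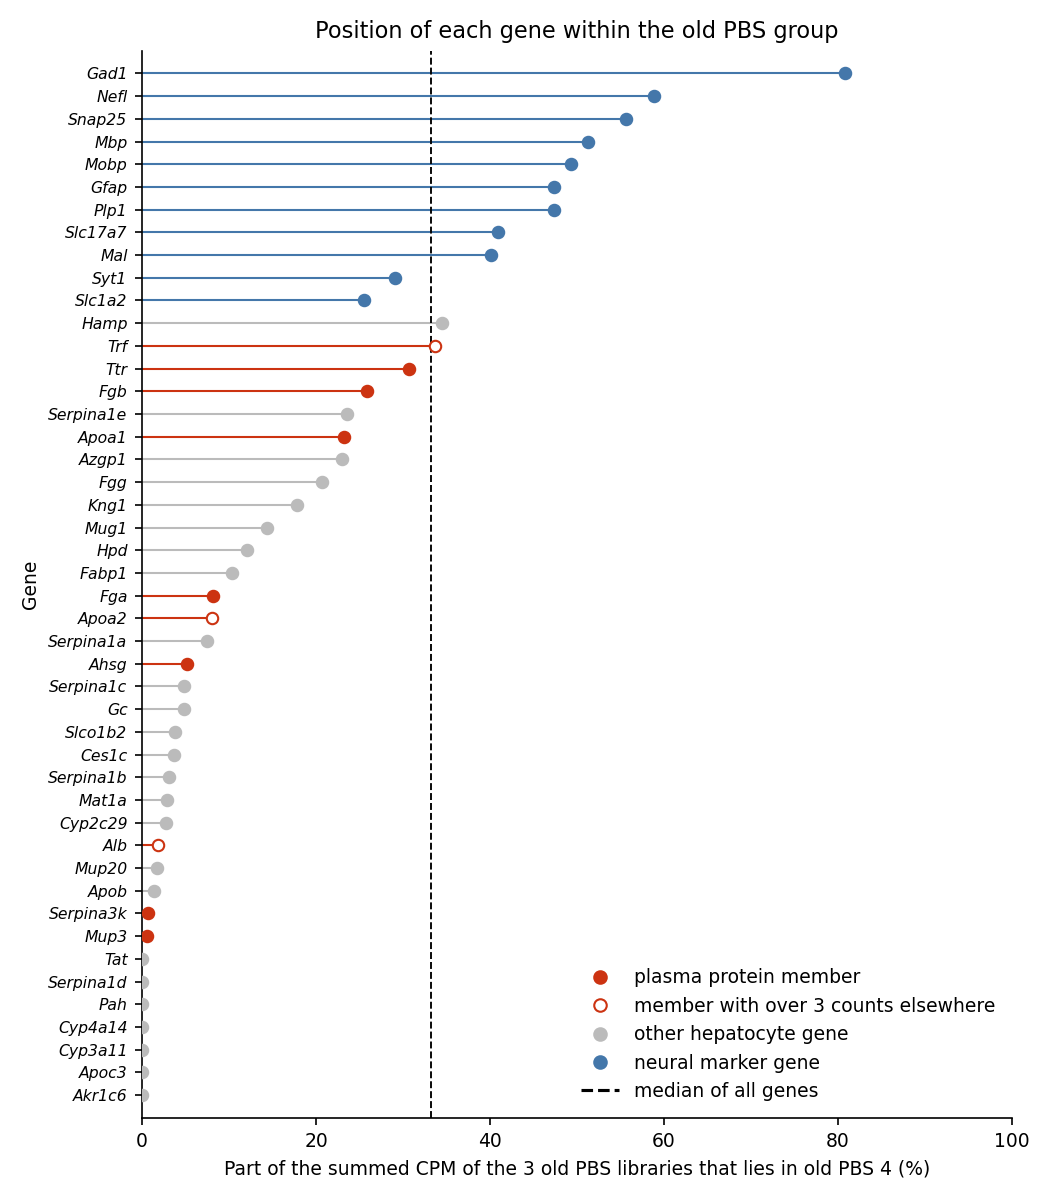
Part of the summed CPM of the 3 old PBS libraries that lies in old PBS 4, in percent (horizontal axis), for the 10 genes (red, open where a gene had over 3 counts elsewhere), 25 other hepatocyte genes (grey) and 11 neural marker genes that were higher in each old PBS library than elsewhere (blue). The dashed line is the median of all genes, 33.2%. Mup3, Serpina3k and Alb lie under 5% and Ttr, Fgb and Apoa1 between 20 and 33%, while 9 of the 11 neural genes lie above the line.

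Tested gene by gene, the other hepatocyte genes that passed edgeR's filter on low counts did not pass its threshold. In old PBS against young PBS, 22 of the 126 passed the filter on low counts, of which 0 were called by edgeR's quasi-likelihood test at an adjusted p under 0.05, 8 had an unadjusted p under 0.05 (36.4%, against 5.91% of all genes tested) and 21 were higher in old PBS. Among all genes 0.0643% were called. The median log2 fold change of the 22 was 0.91 and that of all genes 0.014, but the filter keeps genes that reach a level in 1 group, so a gene nearly absent elsewhere had to differ. DESeq2, which keeps genes with fewer counts, called 22 of the 126, all higher in old PBS. It called 1.27% of all genes with an adjusted p higher. Many of the called list genes, such as Gc and Mat1a, were at 0 outside old PBS, so they entered only through that group. The lists were also drawn up with earlier results known, so these calls are a description and no independent evidence. Hpx, which encodes the haem carrier hemopexin, had 27, 36 and 24 counts in old PBS 2, 3 and 4 against 3, 11 and 3 in young PBS. Its log2 fold change was 2.33 (SE 0.56), with an adjusted p of 0.261 in edgeR.

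In old rMETRNL against old PBS, 23 of the 126 passed the filter and 0 were called by edgeR. Of the 23, 7 had an unadjusted p under 0.05 (30.4%, against 8.07% of all genes) and 5 were higher in old rMETRNL, with a median log2 fold change of -0.55 (-0.0056 for all genes). edgeR called 0.108% of all genes in this comparison. DESeq2 called 20 of the list, all lower in old rMETRNL, and called 1.62% of all genes with an adjusted p lower. The limits given for the DESeq2 calls of the first comparison hold here too. Both comparisons share the old PBS libraries, so their results are not independent. Hpx had 0, 6 and 2 counts in old rMETRNL, a log2 fold change of -3.50 (SE 0.74) with an adjusted p of 0.140 in edgeR. Without old PBS 3, edgeR called 3 list genes in the first comparison and 6 in the second, while its calls among all genes rose from 10 to 401 and from 17 to 1560.

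Old rMETRNL against young PBS leaves out the old PBS libraries, but genes chosen for old PBS are low in both other groups by that choice, so the levels of the 9 other than Trf are a description here too. Of the 10, only Trf passed the filter, and its log2 fold change was -0.38 (SE 0.33), with an adjusted p of 1.0 in edgeR. With each library left out in turn the log2 fold change of Trf ran from -0.71 to -0.11. The other 9 genes together had 8, 7 and 2 counts in young PBS and 10, 7 and 8 in old rMETRNL, most of them from Apoa2. Without Apoa2 and Trf the remaining 8 genes had 0, 0 and 0 counts in young PBS and 5, 1 and 1 in old rMETRNL, against 1481, 775 and 141 in old PBS. These 8 genes were too low to be tested between young PBS and old rMETRNL. Of the 126 list genes 15 were tested, of which edgeR called 0, with 1 at an unadjusted p under 0.05, and DESeq2 called 0. Positive log2 fold changes, meaning higher in old rMETRNL, were found for 13 of the 15. The median over the 15 was 0.38, and over all genes tested it was 0.00089. An upward direction of the tested list genes was thus not found in old PBS alone. edgeR called 0% of all genes tested in this comparison, and 2.41% had an unadjusted p under 0.05.

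Markers of other cells that liver or brain tissue would hold were read in the same libraries, from lists also drawn up with earlier results known. Of 13 genes of liver cells other than hepatocytes, 12 had at least 10 counts. Of these, 1 (Vsig4, a macrophage receptor) was higher in each old PBS library than elsewhere, against 3.76% of all genes with at least 10 counts. The summed level of the 13 was 22.5 to 25.4 CPM in old PBS, 20.4 to 24.9 in young PBS and 17.5 to 19.8 in old rMETRNL. The remaining gene, Clec4f, the defining receptor of Kupffer cells, gave 1, 3 and 1 counts for old PBS and 0 elsewhere. Of 6 kidney, 7 pancreas and 5 intestine genes, 0, 1 and 2 had at least 10 counts. Of these, 0 were higher in each old PBS library than elsewhere. With so few genes to read, this cannot show whether RNA of those organs was absent. Of 10 choroid plexus genes, 7 had at least 10 counts, and 1 of these (Clic6) was higher in each old PBS library. It had 13, 13 and 25 counts there against 1 or 2 elsewhere. The summed choroid plexus level was 3.32 to 4.65 CPM in old PBS, 2.27 to 3.0 in young PBS and 1.34 to 3.35 in old rMETRNL, and Otx2, a defining factor of that tissue, had 1, 1 and 0 counts in old PBS. The part of the choroid plexus in the Ttr counts was not tested.

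Some genes of neurons, astrocytes and oligodendrocytes also set old PBS apart from the other groups, but most of these were spread differently within it. Of 11 neuron and astrocyte genes 7, and of 13 oligodendrocyte genes 4, were higher in each old PBS library than elsewhere. Among all genes with at least 10 counts, 3.76% were. These lists too were drawn up with earlier results of these libraries known. The summed level of the oligodendrocyte genes was 83.8 to 268 CPM in old PBS, 42.6 to 50.5 in young PBS and 45.2 to 54.1 in old rMETRNL. That of the neuron and astrocyte genes, 255 to 445 CPM in old PBS, overlapped 277 to 364 in young PBS because Camk2a and Aqp4 are at high levels in all of these libraries. Mobp, a myelin protein gene, had 470, 262 and 665 counts in old PBS 2, 3 and 4 and 0 elsewhere, and Snap25, a synaptic gene, had 221, 125 and 406 and 0 elsewhere. Alb was highest in old PBS 2 and lowest in old PBS 4, whereas Mobp and Snap25 were highest in old PBS 4. Not all neural genes were: Slc1a2, with 458, 484 and 283 counts, and Syt1, with 131, 37 and 68, had their highest CPM in old PBS 2. So did Mal, Mag, Ermn and Mog. In CPM, Slc1a2 was also lowest in old PBS 4, as Alb was. Of the summed CPM of the 3 old PBS libraries, old PBS 4 held 49.3% for Mobp and 55.7% for Snap25, against 1.78% for Alb and 30.7% for Ttr. The part of neural RNA in the plasma protein counts was not tested.

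The 5 red blood cell genes summed to 250, 128 and 981 CPM in old PBS 2, 3 and 4. Their sum was 51.7 to 191 CPM in young PBS and 61.2 to 843 CPM in old rMETRNL. In old PBS against young PBS their median log2 fold change was 2.12. With edgeR 4 of the 5 had an unadjusted p under 0.05 (5.91% of all genes tested did) and 0 were called. Adipocyte genes summed to 37.5, 145 and 113 CPM in old PBS 2, 3 and 4, 22.6 to 138 CPM in young PBS and 54.2 to 199 CPM in old rMETRNL. The part of blood or fat RNA in the plasma protein counts was not tested.

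Outside the 10, the genes whose spread over the 9 libraries was most like that of Alb, Ttr, Apoa1 and Trf were listed, with likeness as the summed overlap of the 9 shares, which is 1 for the same spread. It was computed over the 17104 genes with at least 50 counts and the same 9 libraries enter every value. For Alb the 5 nearest outside the 10 were Cyp3a11 (0.979), Apob (0.966), Ces1c (0.963), Mup20 (0.962) and Serpina1b (0.951), each a gene of hepatocytes. The nearest to Ttr outside the 10 included Ncan (0.926), Kcnk9 (0.925), Pcsk2 (0.925) and Nrsn1 (0.919), each known from neural tissue. Ncan, which encodes neurocan, a proteoglycan of brain matrix, had 19, 18 and 19 counts in old PBS 2, 3 and 4 and up to 1 in any other library.

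For Apoa1 the nearest genes outside the 10 mixed both kinds. Slc1a2, the glutamate transporter of astrocytes, was first (0.961), with 458, 484 and 283 counts in old PBS and 1 to 10 elsewhere. Kng1 followed (0.941), then Xist (0.889), the transcript of the silent X chromosome of female cells, with 21, 21 and 8 counts in old PBS and 0 to 4 elsewhere, Ptprt (0.876) and Ncan (0.857). Among the 10 genes, Ttr was nearest to Fgb (0.952) and Apoa1 (0.903), and Alb to Ahsg (0.954) and Mup3 (0.872), while Apoa1 was nearer to Fgb (0.941) and Ttr than to Xist. Alb and Ttr had a likeness of 0.711, and Trf reached 0.230 with Alb. The nearest genes of Trf outside the 10 were Zxdb (0.957), Gm10288, Crybb1, Hoxd9 and Tubd1, which had counts in every library of all 3 groups.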

How the data were processed

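RNA of injured muscle was sequenced in 9 libraries, made with the NEBNext Ultra kit and read paired-end. Raw read counts of 54532 Ensembl genes were deposited by the authors, 1 column per library and not normalized. The submitters' processing notes name STAR, featureCounts and the mm9 build, with no role or order. The strand setting is not given in the sources used here. Symbols, exon lengths and gene coordinates came from GENCODE's GRCm38 annotation (54495 genes matched), and promoters from RefSeq.

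Each pair of groups (6 libraries) was fitted with edgeR version 4.0.16, run under R version 4.3.3 (filterByExpr, TMM, glmQLFit and glmQLFTest, Benjamini-Hochberg adjustment over all genes tested, threshold 0.05), and with DESeq2 1.42.0 as an alternative. Fits were tested on simulated data. TMM factors over the 9 libraries gave the CPM levels. Folds against libraries at 0 used a floor of 3 counts per library. Intervals of shares are exact binomial, and those of ratios are exact conditional intervals.

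The members and the lists of genes were chosen with earlier results of these data known. Genes outside the 10 that are named are list members, the 5 nearest by likeness (1 of those of Ttr is not reported here), and examples chosen after their values were seen. Size factors of DESeq2, all genes with a count kept, 1 fit over the 3 groups, a block on the replicate number and leaving out each library in turn were tried as alternatives. Replicate numbers did not pair the libraries: the deviations of libraries with the same number had correlations of -0.32 to 0.41.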

Additional observations from a re-analysis of the deposited data

How the results depend on the processing

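The summed CPM of the 10 genes, a mean of 54.6 in old PBS, was 25.2 without Alb and 26.9 without old PBS 2, 61.8 without old PBS 3 and 75.0 without old PBS 4. It was 50.6 to 54.2 without Trf, with total counts alone and with DESeq2's size factors. The share of Alb among the counts of the 10 differed by 5.08-fold between the highest and lowest old PBS library, and by 1.06-fold to 5.08-fold with each library left out, the lowest value being that without old PBS 4. In old PBS against young PBS, edgeR called 0 list genes and 10 of all genes. These counts were 22 and 265 with DESeq2, 25 and 354 without a filter on low counts, and 0 to 3 and 2 to 401 with each library left out, the highest without old PBS 3. A fit of all 9 libraries called 63 of all genes. In old rMETRNL against old PBS, edgeR called 0 list genes and 17 of all genes. The counts were 20 and 357 with DESeq2, 34 and 740 without a filter, and 0 to 6 and 3 to 1560 with each library left out, again highest without old PBS 3, and the fit of all 9 libraries called 71. In old rMETRNL against young PBS, edgeR called 0 of either, against 2 list genes and 132 of all genes without a filter and 0 to 1 of all genes with a library left out. The replicate numbers did not pair the libraries, and with the replicate block edgeR called 65 of all genes in old rMETRNL against old PBS and 0 list genes in each comparison. The cause of these shifts was not tested. The count of 35 list genes with each old PBS library above the others was 35, 40 and 56 without old PBS 2, 3 and 4, an alternative added after the data were seen. These were 37.2, 42.6 and 59.6% of the 94 list genes with at least 10 counts. Among all genes with at least 10 counts the shares were 5.79, 14.0 and 6.81%, against 3.76% with all libraries. Counts of 1 to 6 in old PBS 4 set wide intervals on the ratios of Mup3, Serpina3k, Fga and Ahsg there, and levels under 3 counts cannot be told from 0.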
